A study of Mus musculus with 4 samples.

Results

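Protein S-palmitoylation attaches the fatty acid palmitate to cysteines through a bond that can be cut again, and so controls how proteins sit in and move between membranes. The writers are the Zdhhc enzymes, named for the aspartate-histidine-histidine-cysteine motif of their catalytic domain; Golga7 (also called GCP16) is a small palmitoylated protein that binds some of them and stabilises them. Several abundant proteins of oligodendrocytes, the glia that wrap axons in myelin, are palmitoylated. The question here was whether other palmitoyltransferases were higher or lower when Zdhhc5 was deleted. The genes were taken as every table row named Zdhhc followed by digits, or beginning with Golga7. There were 10 such rows among 6940, 9 Zdhhc genes and Golga7.

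RNA was sequenced from 4 libraries of cultured oligodendrocytes of C57BL/6 mice. The 2 control libraries were Zdhhc5fl/fl, carrying the floxed gene without Cre. The 2 conditional knockout (cKO) libraries were Olig1cre/+;Zdhhc5fl/fl, so Cre was expressed from the Olig1 locus, which is active in the oligodendrocyte lineage, and 1 Olig1 allele carried the insertion. Cells of both genotypes came from the cortex of pups at postnatal day 5 and were enriched as precursors by immunopanning on GalC antibody, then O4 antibody; the labels do not say which step retained and which removed cells. After 6 days of growth they received triiodothyronine, a thyroid hormone, at 40 ng/mL, and were collected 24 h into differentiation. Because only the cKO cells had Cre and the altered Olig1 locus, their effects and that of Zdhhc5 loss cannot be told apart. The labels do not state whether libraries of a genotype were separate cultures or animals, so the p-values measure the spread between these libraries, which may be technical.

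Listed genes held between 13672254 and 20068016 recovered reads per library. Zdhhc5 itself was not analysed here, so the genotype labels were not checked against its level. Olig1 fell from 11990 ± 64.6 to 6845 ± 574 normalised reads (SD, n = 2 libraries per genotype). Of 14 oligodendrocyte markers 12 had a row and all 12 were lower in the cKO libraries; their summed level was 410670 and 412880 in the controls against 93481 and 96295 in the cKO libraries. Of 8 precursor markers 7 had a row, 2 higher and 5 lower, with sums of 75464 and 75908 against 61114 and 59481. Olig1, whose locus carries Cre in the cKO cells, was among the 5 lower ones and is part of these sums. Astrocyte markers (9 of 10 with a row, 7 higher) summed to 492820 and 494090 in the controls against 739910 and 733120 in the cKO libraries. Pericyte and fibroblast markers (8 of 10, all 8 higher) had sums of 3662 and 3456 in the controls against 11403 and 11021 in the cKO libraries. Sums of microglia markers (5 of 10, all 5 higher) went from 1617 and 1578 to 2441 and 2615. Those of neuron markers (10 of 10, 8 higher) were 18610 and 18926 against 17749 and 17532, although the median log2 fold change was 0.64. Endothelial markers (3 of 8, 2 higher) had sums between 187 and 229 throughout, with a median log2 fold change of 1.86. No listed marker was at 0 in any library. These levels moved with genotype in the same libraries as the palmitoyltransferases, and their part in the results below was not tested. In bulk RNA, fewer cells of a type and less RNA per cell cannot be told apart.

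Every row of the table as used here has an adjusted p-value under 0.05 in the authors' deposited table, so a row stands for a gene already called; the authors' adjustment covered 17347 genes, of which 40.0% were listed. The mouse annotation holds 24 Zdhhc genes and 2 Golga7 genes, and 9 of the 24 (37.5%) and 1 of the 2 had a row. How many of the annotated genes were among the 17347 is not known, so the 37.5% and the 40.0% have unlike bases. The other 15 Zdhhc genes, among them Zdhhc3, Zdhhc7 and Zdhhc8, and Golga7b were not analysed here. Their levels are therefore not known from these data, and the statements below cover the 10 listed genes alone.

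Among the 10 listed genes 8 were lower and 2 higher in the cKO cells. The lower genes were Zdhhc2, Zdhhc20, Zdhhc21, Zdhhc14, Zdhhc17, Zdhhc9, Zdhhc24 and Golga7, and the higher ones were Zdhhc18 and Zdhhc1, Zdhhc18 turning to lower when the trend with GC content was removed (below). All 10 passed in limma at an adjusted p under 0.05, as did 100% of the listed genes, 53.3% of them lower and 46.7% higher. Since each row was selected for this same difference, the calls are a description and not independent evidence. No member overlapped between genotypes; both cKO values lay below both control values in 53.3% of listed genes and above them in 46.7%. The median log2 fold change of the 10 was -0.67, beside -0.22 over all listed genes. Falls of at least 1.5-fold occurred in 6 members, against 27.7% of listed genes, and falls of at least 2-fold in 3, against 11.8%. No member was 1.5-fold higher, as 17.5% of listed genes were.

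**Figure D1:**
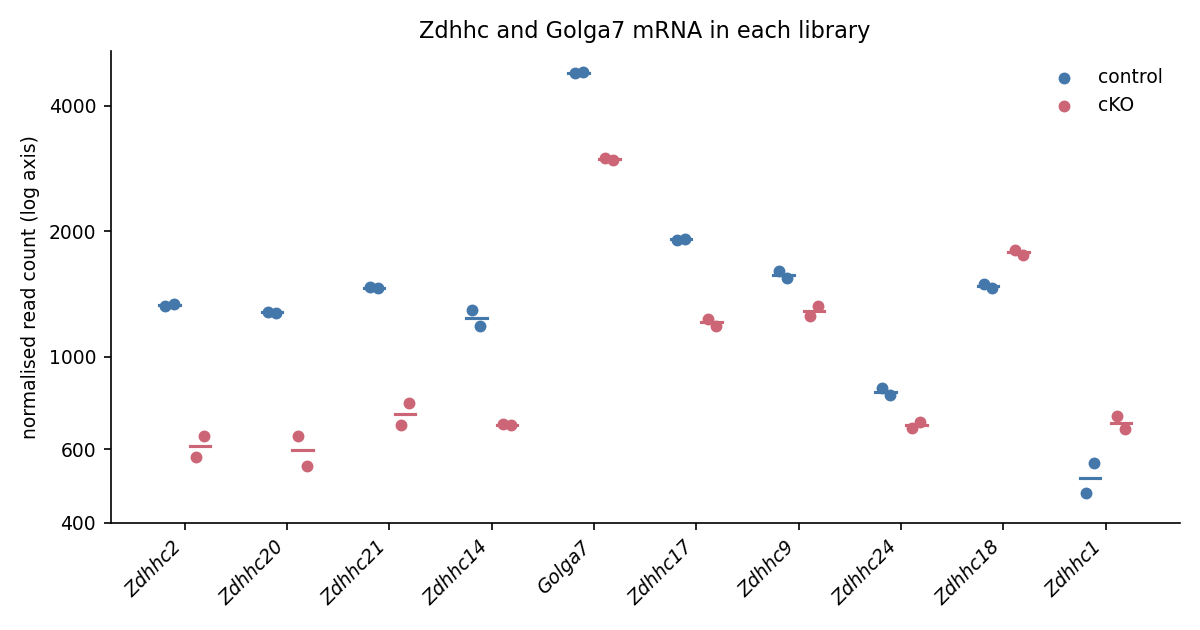
Normalised read count on a log axis for each of the 10 genes, with 1 point per library and a short line at the genotype mean (blue, 2 controls; red, 2 cKO libraries). The red points lie below the blue ones for 8 genes and above them for Zdhhc18 and Zdhhc1.

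The 3 genes that were at least 2-fold lower encode enzymes of the cell surface and the secretory pathway. Zdhhc2, which modifies the cytoskeleton-linking protein Ckap4 and the synaptic scaffold Dlg4, had 1322 and 1339 normalised reads in the control pair against 576 and 646 in the cKO pair. It was 2.18-fold lower (log2 fold change -1.12 with an SE of 0.07, adjusted p 7.24e-13 by limma). Zdhhc20, an enzyme known for modifying the EGF receptor, had 1283 and 1276 reads in the control pair against 647 and 547 in the cKO pair. It was 2.14-fold lower (log2 fold change -1.10 with an SE of 0.07, adjusted p 4.33e-12 by limma). Zdhhc21, which modifies the Src-family kinase Fyn, had 1468 and 1460 reads in the control pair against 686 and 775 in the cKO pair, 2.00-fold lower (log2 fold change -1.005 with an SE of 0.07, adjusted p 2.95e-12 by limma). None of the 3 stayed 2-fold lower with the GC trend removed, which gave log2 fold changes of -0.64, -0.38 and -0.29. In each of the 3 the controls lay within a few percent of each other and the cKO libraries differed more. The order of the cKO libraries was not shared: Zdhhc20 was higher in cKO 1, whereas Zdhhc2 and Zdhhc21 were higher in cKO 2. The ratio of Zdhhc20 to Zdhhc2 reads, in which the size factor of a library cancels, was 0.971 and 0.953 in the controls against 1.12 and 0.847 in the cKO libraries, so the cKO values lay on both sides of the controls.

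Zdhhc14, Golga7 and Zdhhc17 were lower by 1.58-fold to 1.80-fold. Zdhhc14 had 1293 and 1188 reads in the control pair against 689 and 686 in the cKO pair (log2 fold change -0.85 with an SE of 0.07, adjusted p 6.55e-11 by limma). Golga7, the most abundant of the 10 by reads, had 4792 and 4830 reads in the control pair against 3005 and 2974 in the cKO pair, 1.61-fold lower (log2 fold change -0.69 with an SE of 0.04, adjusted p 2.81e-13 by limma). Zdhhc17, a Golgi enzyme with ankyrin repeats that binds huntingtin, had 1912 and 1918 reads in the control pair against 1231 and 1189 in the cKO pair (log2 fold change -0.66 with an SE of 0.05, adjusted p 1.14e-10 by limma). The gap between genotypes was many times the spread within either for all 3.

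Zdhhc9, which forms with Golga7 the enzyme that palmitoylates H-Ras and N-Ras, was lower by less than its partner. It had 1604 and 1546 reads in the control pair against 1257 and 1327 in the cKO pair, 1.22-fold lower (log2 fold change -0.29 with an SE of 0.06, adjusted p 1.05e-04 by limma). The ratio of Golga7 to Zdhhc9 reads was 2.99 and 3.13 in the controls against 2.39 and 2.24 in the cKO libraries. Both cKO ratios thus lay below both controls whatever the size factors, but a trend with GC content does not cancel in this ratio. With that trend removed the log2 fold changes were nearly equal, -0.50 for Golga7 and -0.49 for Zdhhc9. Zdhhc24, a little-studied member, had 841 and 810 reads in the control pair against 676 and 697 in the cKO pair, 1.20-fold lower (log2 fold change -0.27 with an SE of 0.07, adjusted p 0.00221 by limma). It lay nearest the listing threshold, with an adjusted p-value of 0.0446 in the authors' deposited table. The calls of Zdhhc9 and Zdhhc24 were lost with relative log expression factors, which raised the median log2 fold change of all listed genes by 0.19 (log2 fold changes -0.09 and -0.08, limma adjusted p 0.272 and 0.752). Those factors were computed from listed genes only, all of them already called, so they may not be the factors that all genes would give. The call of Zdhhc9 was also lost with the length trend removed (-0.13, limma adjusted p 0.0813).

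The 2 genes with higher values, Zdhhc18 and Zdhhc1, differed by less than 1.5-fold. Zdhhc18, a Golgi enzyme that also acts on Ras proteins, had 1496 and 1461 reads in the control pair against 1805 and 1761 in the cKO pair, 1.21-fold higher (log2 fold change 0.27 with an SE of 0.05, adjusted p 9.04e-05 by limma). Zdhhc1, known as a partner of the innate immune adaptor STING, had 471 and 556 reads in the control pair against 721 and 672 in the cKO pair, 1.36-fold higher (log2 fold change 0.44 with an SE of 0.08, adjusted p 9.31e-05 by limma). The lower cKO value of each exceeded its higher control value. Without the trend with GC content Zdhhc18 was lower (log2 fold change -0.17, limma adjusted p 0.00926) and Zdhhc1 was not called (0.01, limma adjusted p 1). The ratio of Zdhhc2 to Zdhhc18 reads was 0.884 and 0.916 in the controls against 0.319 and 0.367 in the cKO libraries. The trend with GC content does not cancel in this ratio. With that trend removed the log2 fold changes lay closer together, at -0.64 for Zdhhc2 and -0.17 for Zdhhc18.

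Fold changes in this table moved with base composition, and the members are spread along that axis. Of 472 listed genes with a transcript GC content below 40%, 96.6% were lower in the cKO cells, with a median log2 fold change of -0.84, whereas of 1715 with 55% or more 20.3% were lower, with a median of 0.40. Zdhhc20 (38.8% GC), Zdhhc21 (38.9%), Zdhhc17 (41.8%) and Zdhhc2 (42.2%) have AT-rich transcripts, and Zdhhc1 (57.8%), Zdhhc14 (58.2%) and Zdhhc18 (58.8%) GC-rich ones. Against listed genes within 1 percentage point of its own GC content, Zdhhc17 lay near the median (-0.66 beside -0.61 over 535 genes), as did Zdhhc1 (0.44 beside 0.41 over 545 genes). Zdhhc2 lay further below its neighbours (-1.12 beside -0.59 over 558 genes), with 11.6% of them lower still. Zdhhc14 stood furthest from its neighbours, at -0.85 beside 0.42 over 514 genes, 6.03% of which had a lower value. Zdhhc9 (51.2% GC) and Zdhhc24 (52.8% GC) were also lower, among neighbours with medians of 0.22 and 0.32. They stood out less, as 30.5% and 24.2% of those neighbours had a lower value.

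**Figure D2:**
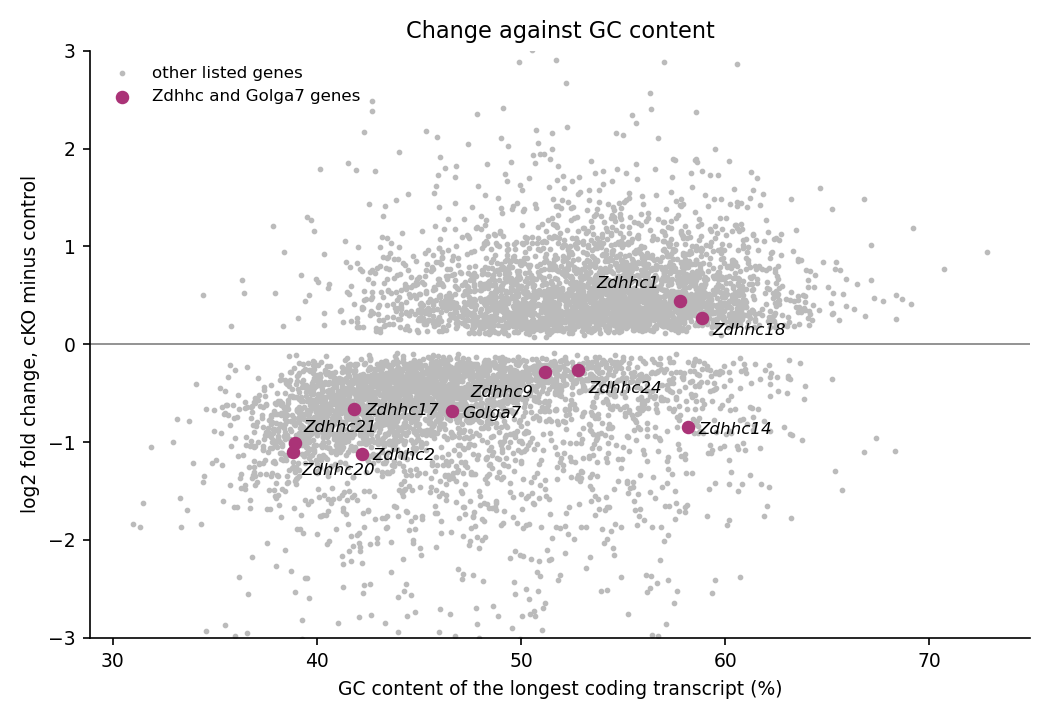
Log2 fold change (cKO minus control) against GC content of the longest coding transcript, for the listed genes (grey) and the 10 Zdhhc and Golga7 genes (purple); 35 listed genes beyond 3 in either direction are not drawn. Zdhhc20, Zdhhc21, Zdhhc2 and Zdhhc17 lie in the low-GC part, where most genes were lower, and Zdhhc14 lies below most genes of like GC content.

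With the GC trend removed, 9 of the 10 were lower and 0 higher, beside 40.2% lower and 28.4% higher over all listed genes. This removal itself raised the median of all listed genes by 0.15. The trend, like the neighbours above, rests on listed genes only, all of them already called, so its size over all genes is not known. The order of the falls changed. Zdhhc14 had the largest, a log2 fold change of -1.29 (limma adjusted p 2.86e-12), followed by Zdhhc2 at -0.64 (1.5e-07, limma) and Zdhhc24 at -0.57 (1.01e-06, limma). Golga7 stood at -0.50 (limma adjusted p 1.3e-09) and Zdhhc9 at -0.49 (3.16e-07, limma). Zdhhc20, Zdhhc21 and Zdhhc17, at -1.10, -1.005 and -0.66 before, came to -0.38, -0.29 and -0.15 (limma adjusted p 6.11e-04, 0.00108 and 0.029). Removing GC content and length together moved Zdhhc21 to -0.23 and Zdhhc17 to -0.14, and left Zdhhc14 at -1.31; it called 9 members lower and 0 higher, beside 40.9% and 28.4% of listed genes. With the length trend alone removed 7 were lower and 2 higher, beside 47.0% and 36.9%, and with relative log expression factors 6 and 2, beside 42.0% and 46.8%. Zdhhc2, Zdhhc20, Zdhhc21, Zdhhc14, Zdhhc17 and Golga7 kept their direction and call in all 18 alternatives computed, with the sizes just given.

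**Figure D3:**
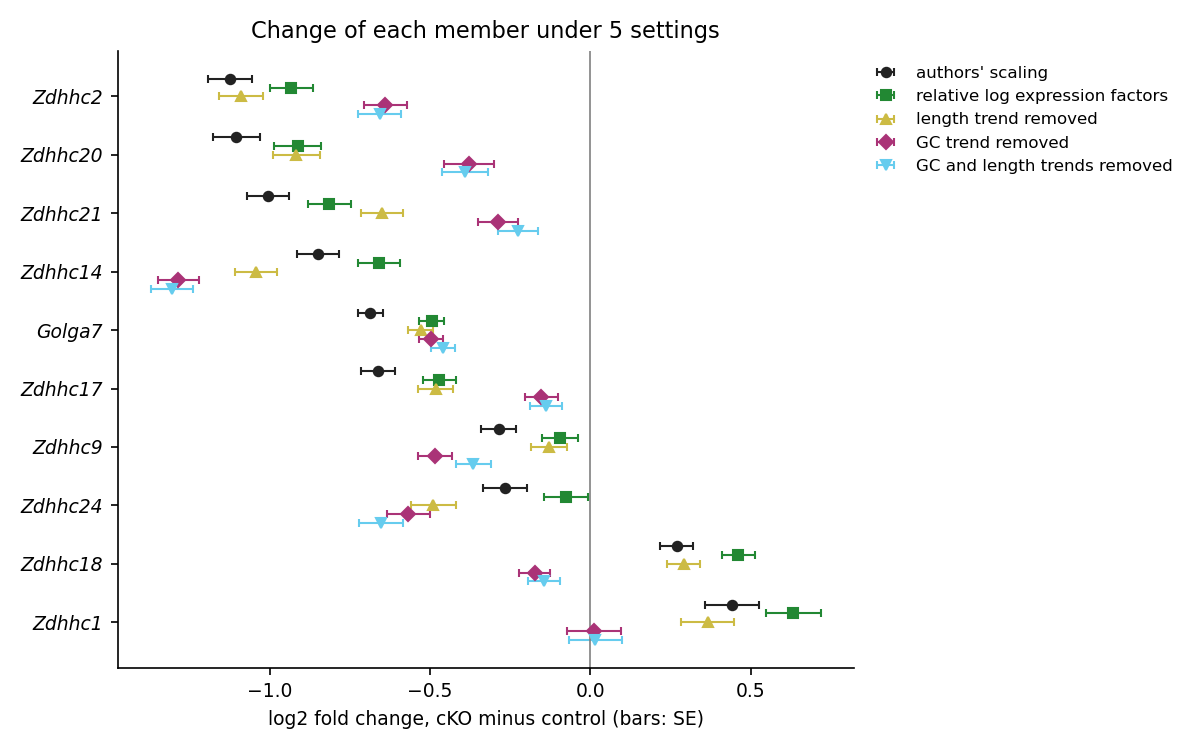
Log2 fold change with its SE for each gene under the authors' scaling and 4 alternatives (relative log expression factors, length trend removed, GC trend removed, both trends removed). Points right of the grey line at 0 are higher in the cKO cells; Zdhhc18 crosses that line with the GC trend removed and Zdhhc14 moves further from it.

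The genes differ in structure. All 10 spans in the table equal those of GENCODE M21 on GRCm38. The coding sequences range from 411 bases (Golga7) to 1896 (Zdhhc17), beside a median of 1476 over listed genes. Zdhhc21 combines a coding sequence of 795 bases with a 3′ untranslated region of 7594 bases, and Zdhhc20 has 1104 and 3986 bases; the median 3′ region of listed genes is 1404 bases. Among the GC-rich genes Zdhhc1 has a 3′ region of 181 bases, Zdhhc14 one of 721 and Zdhhc18 one of 3360. Zdhhc14 also has the longest genomic span, 261255 bases on chromosome 17 (5492557 to 5753811), and Zdhhc24 the shortest, 6730 bases on chromosome 19 (4878668 to 4885397). Zdhhc2 (chromosome 8, 40423815 to 40510268) shares up to 194 exonic bases with Cnot7 on the opposite strand, a subunit of the deadenylase complex that was also lower (1390 ± 23.4 against 952 ± 50.3 normalised reads). Golga7 (chromosome 8, 23241346 to 23257074) shares 348 with Gm45412. As the strand setting of the counts is not given in the sources used here, reads of these overlaps cannot be told apart.

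Levels were compared between genes as normalised reads per kb of gene length. In the controls Zdhhc14 was highest, at 403 ± 24.1 reads per kb, and Zdhhc21 lowest, at 113 ± 0.44 (SD, n = 2). Between them stood Zdhhc24 (283 reads per kb), Zdhhc18 (275), Zdhhc17 (272), Zdhhc2 (241), Zdhhc9 (234), Zdhhc20 (177) and Zdhhc1 (122). The control values of Zdhhc24 and Zdhhc18, of Zdhhc18 and Zdhhc17, and of Zdhhc1 and Zdhhc21 overlapped, so the order within these pairs is not settled. In the cKO libraries Zdhhc18 was highest (331 ± 5.8 reads per kb), followed by Zdhhc24 (235), Zdhhc14 (223), Zdhhc9 (192), Zdhhc17 (172), Zdhhc1 (165), Zdhhc2 (111), Zdhhc20 (82.7) and Zdhhc21 (56.3). Among these only Zdhhc17 and Zdhhc1 overlapped. The order in both genotypes also depends on the gene length used. That length was 6733 bases for Zdhhc9, against 2982 for its longest coding transcript, but 3078 for both in Zdhhc14. Orders by transcript length were not computed, and the shares below use the same gene lengths.

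The 9 listed Zdhhc genes together had 2138 and 2101 normalised reads per kb in the controls against 1570 and 1566 in the cKO libraries, 1.35-fold lower. This total covers the listed genes only and depends on the library scaling. It was not computed with other scaling factors or with the GC trend removed. In shares of the total the library scaling cancels. Zdhhc18 made up 13.0% and 12.9% in the controls against 21.4% and 20.9% in the cKO libraries. Zdhhc1 went from 5.22% and 6.27% to 10.9% and 10.2%. Zdhhc14 went from 19.6% and 18.4% to 14.3% and 14.2%, and Zdhhc2 from 11.2% and 11.5% to 6.64% and 7.46%. Zdhhc9 and Zdhhc24, whose own levels were lower, took slightly larger shares, 12.2% against 11.0% and 15.0% against 13.4% on average. These shares cover the listed genes only. The trend with GC content does not cancel in them, and shares with it removed were not computed. With it removed, Zdhhc24 and Zdhhc9 (log2 fold changes -0.57 and -0.49) fell by more than Zdhhc20, Zdhhc21 and Zdhhc17 (-0.38, -0.29 and -0.15). Their falls were smaller than those of Zdhhc14 and Zdhhc2 (-1.29 and -0.64).

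**Figure D4:**
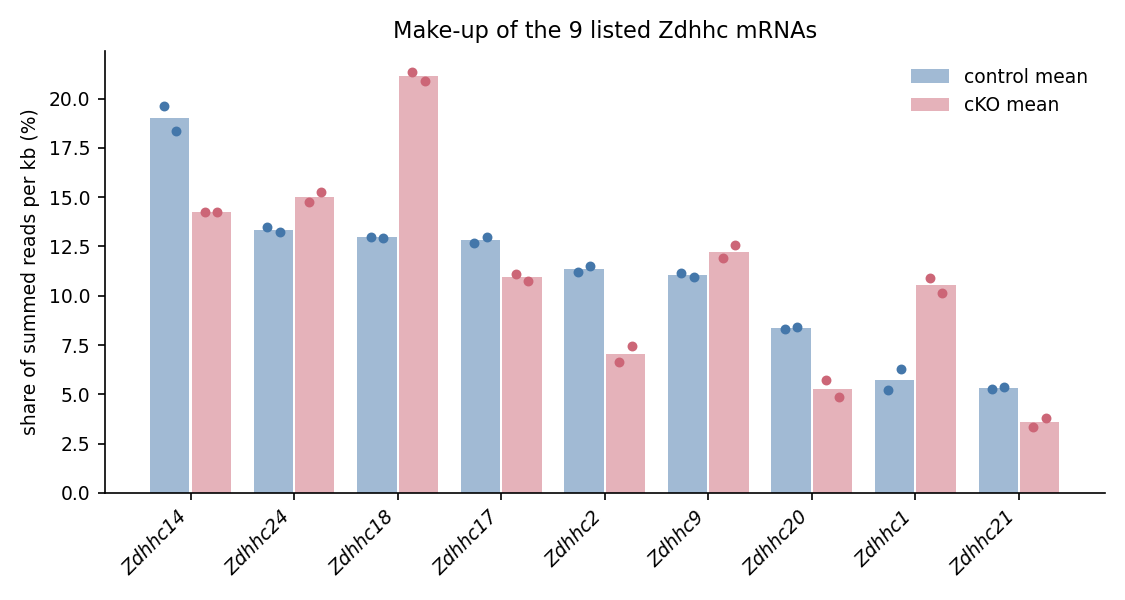
Share of the summed normalised reads per kb of the 9 listed Zdhhc genes, in percent, with bars at the genotype mean and 1 point per library. Zdhhc18 and Zdhhc1 take larger shares in the cKO libraries and Zdhhc14, Zdhhc2, Zdhhc20, Zdhhc21 and Zdhhc17 smaller ones. The trend with GC content is not removed.

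Promoters of 7 of the 10 genes were in the RefSeq table (GRCm38.p6). The 250 bases before the start are shown for the 2 genes that were at least 2-fold lower and had an entry, and for the 2 that were higher, to set the lower beside the higher members. Capitals mark the motifs searched on both strands, which were the GC box GGGCGG, the box named for its letters CCAAT, the nuclear receptor motif AGGTCA, the SOX motif ACAAAG and the E-box CAGCTG.
Zdhhc20: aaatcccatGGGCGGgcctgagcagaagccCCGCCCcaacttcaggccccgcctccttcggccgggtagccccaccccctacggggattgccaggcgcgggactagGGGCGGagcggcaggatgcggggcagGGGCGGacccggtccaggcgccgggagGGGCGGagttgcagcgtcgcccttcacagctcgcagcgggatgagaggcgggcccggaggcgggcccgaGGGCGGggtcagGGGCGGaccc
Zdhhc21: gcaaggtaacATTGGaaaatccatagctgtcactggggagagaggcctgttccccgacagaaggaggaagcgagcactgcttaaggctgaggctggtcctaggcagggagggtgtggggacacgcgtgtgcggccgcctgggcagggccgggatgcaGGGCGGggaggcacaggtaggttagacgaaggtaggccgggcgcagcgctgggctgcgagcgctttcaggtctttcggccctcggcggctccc
Zdhhc18: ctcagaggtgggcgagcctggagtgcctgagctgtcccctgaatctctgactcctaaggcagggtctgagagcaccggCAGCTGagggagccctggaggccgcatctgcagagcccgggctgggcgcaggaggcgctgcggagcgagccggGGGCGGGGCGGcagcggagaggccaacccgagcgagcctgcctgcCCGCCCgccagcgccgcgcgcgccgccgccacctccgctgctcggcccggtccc
Zdhhc1: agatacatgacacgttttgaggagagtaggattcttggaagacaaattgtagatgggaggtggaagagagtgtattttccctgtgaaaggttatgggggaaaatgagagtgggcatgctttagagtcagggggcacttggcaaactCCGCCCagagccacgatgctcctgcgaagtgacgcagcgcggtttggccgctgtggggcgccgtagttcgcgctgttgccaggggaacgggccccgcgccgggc
These lie on the minus strand at chr14:57890337-57890586, chr4:82859674-82859923, chr4:133633430-133633679 and chr8:105497063-105497312; the stretches of Zdhhc21 and Zdhhc18 lie inside the spans that GENCODE M21 gives those genes, so they are upstream of the RefSeq start but not of the M21 start. The GC box was found 7 times for Zdhhc20, 3 times for Zdhhc18, overlapping matches counted, and 1 time each for Zdhhc21 and Zdhhc1. Of the 7 promoters 6 held it, all but that of Zdhhc17, against 32.7% of 32851 RefSeq promoters of that length, and 3 held CCAAT, against 33.9%. The GC box is made of G and C alone, and the 7 promoters had GC contents from 56.4% (Zdhhc9) to 82.0% (Zdhhc17), above the median of 52.4%. No share among promoters of like GC content is given, so the comparison does not show a trait of this family. The nuclear receptor and SOX motifs were in 0 of 7 (14.02% and 16.5% of all promoters), and CAGCTG was in that of Zdhhc18 alone (13.0%). GC content was 76.0% for Zdhhc20, 65.6% for Zdhhc21, 75.6% for Zdhhc18 and 57.2% for Zdhhc1, beside a median of 52.4%, so lower and higher members did not separate by promoter composition in these 4. The AT-rich transcript of Zdhhc20 thus follows a GC-rich promoter.

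Of the enzymes that remove palmitate, 3 of 10 had a row. Abhd17b, a depalmitoylase of N-Ras and synaptic scaffolds, had 3150 and 3155 reads in the control pair against 1499 and 1525 in the cKO pair (log2 fold change -1.06; removing the GC trend gave -0.26). Its relative Abhd17a (1998 ± 80.3 against 2538 ± 99.4) and the thioesterase Lypla2 (2437 ± 75.4 against 2911 ± 43.8) were higher, with log2 fold changes of 0.35 and 0.26. Both of these turned negative with the GC trend removed (-0.13 and -0.20) and with the length trend removed (-0.01 and -0.06). Selenok, a selenoprotein that works with Zdhhc6 in the endoplasmic reticulum, was slightly lower (5061 ± 81.3 against 4644 ± 197, log2 fold change -0.12), and its direction turned with relative log expression factors (0.07) and with the GC trend removed (0.12). Its call was also lost with TMM factors (limma adjusted p 0.44), without a variance trend (0.179), without control 1 (0.137) and without cKO 1 (0.146).

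Genes that make or remove palmitoyl-CoA, the donor of the reaction, had 12 of 18 listed. Of these 5 were higher and 7 lower, near the 46.7% and 53.3% of all listed genes; the list median was -0.18 on the log2 scale, beside -0.22 over all listed genes. Acsl1, an acyl-CoA synthetase, fell from 1121 and 1024 to 408 and 418 reads (log2 fold change -1.37, limma adjusted p 9.62e-14). Acsl3 and Acsl4 were lower by 0.58 and 0.67 on the log2 scale; with the GC trend removed Acsl3 stood at -0.17 and Acsl4, at 0.04, was no longer called. Acot1, a thioesterase that splits acyl-CoA, rose from 1610 and 1611 to 3095 and 2745 (log2 fold change 0.86). Acsbg1, another acyl-CoA synthetase, had a log2 fold change of 0.75, and Dbi, the acyl-CoA binding protein, 0.50, with 25602 ± 978 reads in the controls and 36314 ± 3363 in the cKO libraries. The values of Acsbg1, Acot1 and Dbi were 0.36, 0.52 and 0.50 with the GC trend removed, all still called. Dbi stood at 0.14 with the length trend removed and at 0.26 with both trends removed.

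Enzymes of other protein lipid modifications were mostly lower, 7 of the 9 listed (of 16) against 2 higher, with a list median of -0.56 on the log2 scale, beside 53.3% lower and a median of -0.22 over all listed genes. Chml and Chm, which present Rab proteins for prenylation, had log2 fold changes of -1.54 and -0.84, and with the GC trend removed Chml stood at -0.92 and Chm, at 0.01, was not called. Icmt, which methylates prenylated proteins, was lower by 0.35 (0.71 with the GC trend removed). Hhatl, a homologue of the enzyme that palmitoylates Hedgehog, was low throughout, at 103 and 81.5 reads in the control pair against 40.0 and 43.9 in the cKO pair (log2 fold change -1.11). Rabggta, a subunit of a Rab prenylating enzyme, and Nmt1, an N-myristoyltransferase, had log2 fold changes of 0.32 and 0.15, which turned to -0.06 and -0.09, not called, with the GC trend removed. The call of Nmt1 was also lost without a variance trend (limma adjusted p 0.0784) and without control 2 (0.113). With the GC trend removed 0 of the list were called higher and 5 lower, beside 28.4% and 40.2% of all listed genes.

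Genes for S-palmitoylated proteins numbered 17 higher and 17 lower among 34 listed of 43, near the 46.7% higher and 53.3% lower of all listed genes, and the list median was 0.04 on the log2 scale. The falls were the larger changes. Mag, a myelin adhesion protein, went from 12065 and 12053 to 2063 and 2125 reads (log2 fold change -2.53), and Tspan2, a tetraspanin of oligodendrocytes, had a log2 fold change of -2.23. The 3 largest rises were Cd151, a tetraspanin (0.80), Snap25, a synaptic membrane fusion protein (0.67), and Stmn2, a neuronal tubulin regulator (0.62). Mag is also among the oligodendrocyte markers above, and Snap25 and Stmn2 are among the neuron markers. With the GC trend removed Cd151 stood at 0.44 and Snap25 at 1.06. Of 9 genes for reported Zdhhc5 substrates 5 were listed and all 5 were higher, with a median of 0.55, where 46.7% of listed genes were higher. These were Cd36, a fatty acid receptor (130 and 138 reads against 277 and 243, log2 fold change 0.95), Fxyd1, a sodium pump regulator (0.80), S1pr1, a lipid receptor (0.55), Ctnnd2, an adherens junction protein (0.44), and Flot2, a membrane raft protein (0.27). With the GC trend removed Flot2 turned to -0.14 and Ctnnd2 (0.05, limma adjusted p 0.467) was not called, leaving 3 higher and 1 lower, beside 28.4% and 40.2% of all listed genes. That removal also took Cd36 to 1.70 and Fxyd1 to 0.38; S1pr1 stood at 0.35 with the length trend removed. The call of Flot2 was also lost with the length trend removed (0.02). These counts describe mRNA; no palmitoylation was measured.

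**Figure D5:**
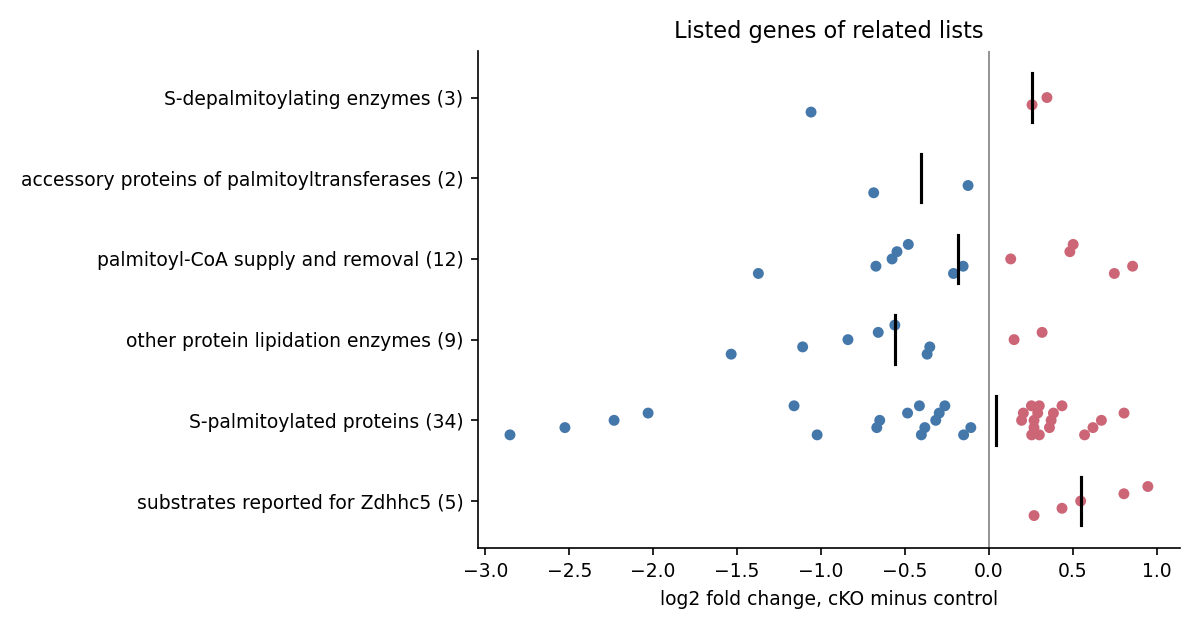
Log2 fold change (cKO minus control) of every listed gene of 6 related lists, 1 point per gene (red higher, blue lower), with a black bar at the list median and the number listed in brackets. The enzymes of other lipid modifications lie mostly left of 0 and the reported Zdhhc5 substrates right of it.

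By distance between centred log2 values over the 4 libraries, among non-members within 2-fold of the same mean level, the genes nearest to Zdhhc2 were Dcp2, Ptpro and Kdm7a (distances 0.026, 0.043 and 0.043, of 2853 candidates). Those nearest to Zdhhc1 were Trim67, Nr1d1 and Phyhip (0.027, 0.031 and 0.035, of 2416). With 4 libraries this measure rests mainly on the size of the genotype difference.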

How the data were processed

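RNA-seq values of 4 libraries (2 control, 2 cKO) came from 1 table. The authors deposited, per the file headers, a normalised signal per gene and library, genotype means, a log2 fold change, and p-values and adjusted p-values. The signal was a read count divided by 1 size factor per library: dividing by the smallest step of a library gave whole reads for 100% of its 6940 values, to a tolerance of 0.01. DESeq2 (no version) and the builds mm10 and GRCm38 are named in the submitters' processing notes; aligner, counter, strand setting and annotation are not given in the sources used here. Columns of other samples numbered 0. The 6940 rows all have a deposited adjusted p-value under 0.05. The genes behind that adjustment, 17347, were computed from adjusted p, rank and p.

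Genotypes were compared, two-sided, with limma 3.58.1 (R 4.3.3) on log2(value + 1), with a variance trend, over all rows with a value of at least 1 in 2 libraries, and Benjamini-Hochberg adjustment over 17347 genes. The called rows lend each other their variance, so p-values may be too low, and log2 fold changes on this scale understate low genes. Folds are ratios of mean normalised reads. GC content came from the longest coding GENCODE M21 transcript (6934 genes matched), and trends were fitted per library by loess (span 0.3) over listed genes only. Relative log expression factors and TMM factors were likewise computed from listed genes only. The fit was tested on simulated data. Alternatives included DESeq2 1.42.0 and edgeR 4.0.16 on recovered reads; edgeR called 3244 genes higher and 3696 lower. Members and lists were chosen with earlier results of these data known. Named genes were all members, Olig1, the 3 largest rises and falls of each related list (all, where 6 or fewer were listed) and the 3 nearest patterns of Zdhhc2 and Zdhhc1. Precision rests on 2 libraries per genotype. A gene that this rule names is not reported here.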

Additional observations from a re-analysis of the deposited data

How the results depend on the processing

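Over 18 alternatives the count of Zdhhc and Golga7 genes called lower ranged from 6 to 9 (8 in the report) and that called higher stayed at 2, except for 0 after GC trend removal and 0 after removal of both GC and length trends. The latter alternative was chosen after seeing the data. Over all listed genes, 3244 were called higher, against 1966 with the GC trend removed and 1969 with both trends removed. Leaving out each library in turn gave 2 higher and 8 lower members every time. With edgeR or DESeq2 on recovered reads the member counts were also 2 and 8. Deviations of same-numbered libraries from their genotype means were almost uncorrelated over listed genes (0.013). With 2 libraries per genotype this cannot tell whether libraries were prepared in pairs, which the labels do not state. The fit with the replicate block gave the same member counts, 2 higher and 8 lower. Directions that turned were, after GC trend removal and then after removal of both trends, Zdhhc18 (-0.17, -0.14), Lypla2 (-0.20, -0.26), Abhd17a (-0.13, -0.22), Acsl4 (0.037, 0.0089), Nmt1 (-0.088, -0.072), Rabggta (-0.058, -0.092) and Flot2 (-0.14, -0.19), and with the GC trend alone Selenok (0.12) and Chm (0.013). Lypla2 (-0.063) and Abhd17a (-0.0064) turned with the length trend removed, and Selenok (0.067) with relative log expression factors. The causes of these shifts were not tested.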
